A study of Drosophila melanogaster with 4 samples.

Results

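The proteasome subunit genes of Drosophila melanogaster were followed in total RNA from ovaries after knockdown of piwi in the embryo. Members were chosen by name: RefSeq symbols that start with Prosalpha or Prosbeta, or with Rpn or Rpt and a digit. This gave 48 genes of the 14775 to which transcripts could be matched. Of these, 32 are broad subunits and 16 carry symbols that end in T or R, with or without a further digit, the naming given to testis-type copies. RNA interference was directed in the control against white, an eye pigment transporter gene (white-embKD, 2 libraries), and in the test group against piwi, which encodes an Argonaute protein that silences transposons in the nucleus with piRNAs (piwi-embKD, 2 libraries). Both groups carried vasa-GAL80[ts] and da-GAL4, and they differed in the hairpin, shwhite or shpiwi. All flies were kept at 18 °C and their embryos were shifted to 28 °C. GAL80 blocks GAL4, its ts form does so in the cold, vasa is a germline gene, and da (daughterless) drives GAL4 in many cell types. The age of the females is not given in the sources used here, and what sets the hairpin lines apart and what the knockdown does cannot be told apart. The labels state biological replicates, with no word on whether a library pooled several females.

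The proteasome is the protease that degrades ubiquitin-tagged proteins. Its 20S core is a barrel in which alpha rings gate the entry and beta rings inside carry the active sites. The 19S regulatory particle caps the barrel: a ring of Rpt ATPases unfolds the substrate, base subunits such as Rpn1, Rpn2, Rpn10 and Rpn13 hold the scaffold and bind ubiquitin, and the lid removes the ubiquitin chain. Its subunits are assembled in fixed proportions, and their genes are known to be expressed together in most tissues. In the fly, several subunits have a second gene copy that is known from the male germline, where it takes the place of the broad subunit.

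Levels are the deposited normalized effective counts, summed over the transcripts of a gene. Depth, read from the smallest nonzero value of each library, was between 16194219 and 20025084 effective counts per library. On the log2 scale r across features was 0.995 for the control pair and 0.976 for the knockdown pair. Below, values come in the order of replicates 1 and 2. The piwi gene stood at 410.0 and 401 in the control libraries and 238 and 121 in the knockdown libraries (log2 change −1.25 ± 0.29 SE, limma adjusted p = 0.0572). A higher filter on low values gave a call (limma adjusted p = 0.0435), and so did the replicate block (limma adjusted p = 0.0009). The other pseudocounts and scalings gave none, nor did no filter (limma adjusted p = 0.197) or no trend (limma adjusted p = 0.115). The log2 change was −1.73 without piwi-embKD replicate 1 and −0.77 without replicate 2. It was −1.24 without white-embKD replicate 1 and −1.27 without replicate 2. The white gene, w, was low throughout, at 1.35 and 1.19 against 3.34 and 2.87 (0.86 ± 0.25 SE, limma adjusted p = 0.103). It was called with no trend (limma adjusted p = 0.0239). The log2 change of w was 0.77 without piwi-embKD replicate 1 and 0.94 without replicate 2. It was 0.37 with the larger pseudocount and 1.23 with the smaller one. Ovary markers were present: vas, the germline helicase gene, stood between 312 and 359, and osk, the oocyte determinant, between 2137 and 2914. Of 16 testis markers measured, 13 were listed at 0 in all libraries, sperm tail and chromatin genes such as Mst87F and dj among them, and the list summed to 1.53 to 2.63 per library.

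Transcripts of the broad subunits were close in total between the groups. The 32 genes summed to 7473 and 7407 in the control libraries and 7544 and 6769 in the knockdown libraries, 7440.05 ± 47.1 against 7156 ± 548 (SD, n = 2 each). Their share of all signal was 0.755% and 0.763% against 0.741% and 0.674%. Replicate 1 of the piwi group lay at 101% of the control mean and replicate 2 at 91.0%, so the knockdown libraries lay on either side of the control pair. The smallest p that an exact permutation test can reach with 2 libraries a group is 0.333.

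None of the 33 members that could be tested was called. A call was a limma adjusted p under 0.05. Of 8172 features fitted together, 6.69% were called, 5.04% higher and 1.65% lower in piwi-embKD. Among the members 0 were higher and 0 lower, and 2 had an unadjusted p under 0.05 (Prosalpha5 and Rpn2), where 25% of all features did. The median log2 change of the broad members was −0.07, beside −0.04 over all features tested. The largest estimates were −0.28 for Prosalpha5 and 0.28 for Rpn2. The 95% intervals reached 0.21 to 0.35 to either side of a member's log2 change, with a median of 0.25. Smaller differences in single genes could not be told from none. An interval clear of 0 was not enough for a call: those of Prosalpha5 and Rpn2 were clear of 0, and neither gene was called. Both knockdown libraries lay below both control libraries for 9 broad members and above them for 2, and the corresponding shares of all features were 33.1% and 25.9%. RNA was taken from whole ovaries, in which fewer cells of a type and less RNA per cell cannot be told apart.

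**Figure D1:**
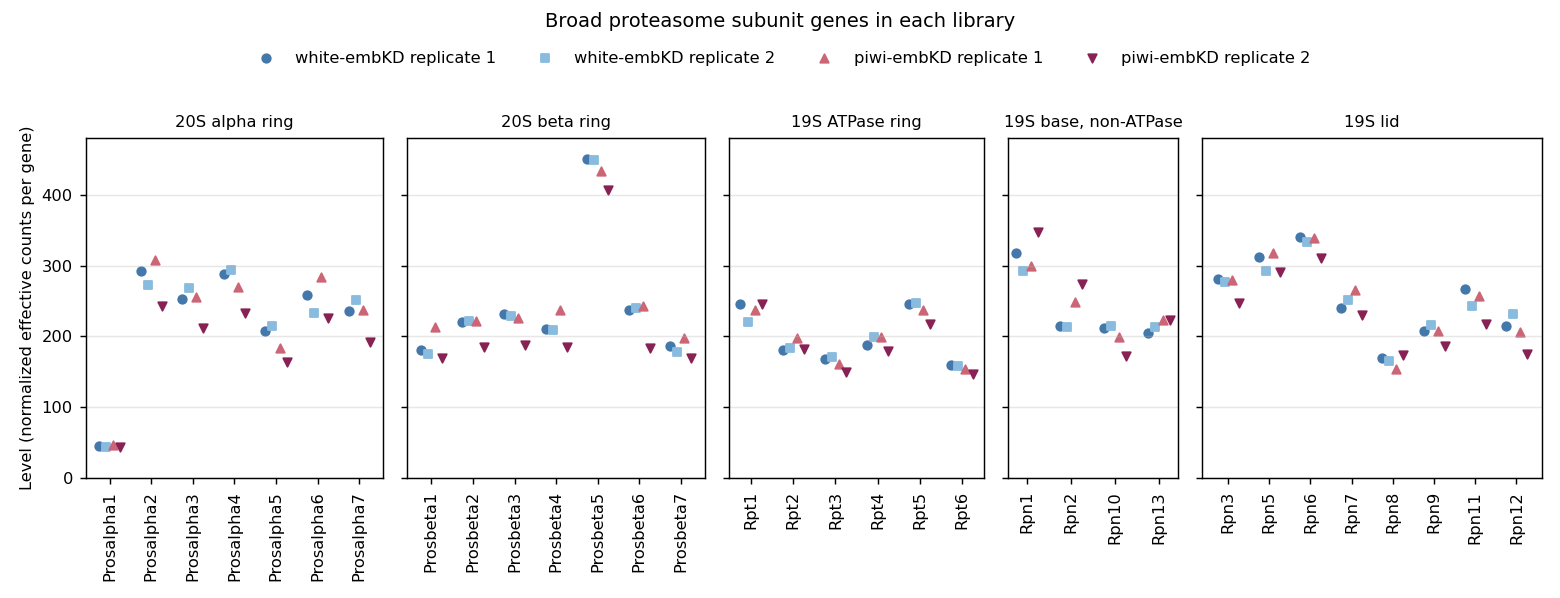
Level of each of the 32 broad proteasome subunit genes (vertical axis, normalized effective counts per gene) in the 4 libraries, by subcomplex; each point is 1 library. The points of a gene lie close together. Piwi-embKD replicate 2 is the lowest library for all 14 genes of the 20S core and the highest for 5 of the 19S genes, Rpn2 among them.

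The 7 alpha subunits form the outer rings whose tails close the gate. Their sum was 1583 and 1578 in the control libraries and 1584 and 1314 in the knockdown libraries, so that piwi-embKD replicate 1 matched the control pair and replicate 2 lay at 83.1% of its mean. Prosalpha5 had the lowest estimate of any broad member, at 208 and 214 in the control libraries and 184 and 164 in the knockdown libraries (log2 change −0.28 ± 0.10 SE, limma adjusted p = 0.148). Its groups did not overlap. At the other end of the ring, Prosalpha6 stood at 259 and 233 against 283 and 226 (0.04 ± 0.13 SE, limma adjusted p = 0.863), with the knockdown libraries outside the control pair on both sides. With equal library totals this estimate was −0.0021, and it was −0.03 without white-embKD replicate 2 and −0.12 without piwi-embKD replicate 1. Prosalpha4 stood at 289 and 294 against 269 and 233, without overlap (−0.22, limma adjusted p = 0.253). Prosalpha3 stood at 253 and 268 against 255 and 212, and Prosalpha7 at 237 and 252 against 237 and 192, where only replicate 2 lay clear of the control pair. Without piwi-embKD replicate 1, Prosalpha3, Prosalpha4, Prosalpha5 and Prosalpha7 had log2 changes of −0.29, −0.32, −0.37 and −0.35. That fit holds 1 knockdown library and calls a larger share of all features than the main fit. The shares are given below and apply to each gene named as called in it.

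The 7 beta subunits line the chamber, and 3 of them cut. Prosbeta5, the chymotrypsin-like subunit, had the highest level of any member, at 451 and 449 in the control libraries and 434 and 406 in the knockdown libraries (log2 change −0.10 ± 0.09 SE, limma adjusted p = 0.527). Its groups did not overlap, and the gap between them was smaller than the gap inside the knockdown pair. Prosbeta2, the trypsin-like subunit, stood at 221 and 223 against 222 and 185 (−0.13 ± 0.11 SE, limma adjusted p = 0.506). Only piwi-embKD replicate 2 departed there, and the log2 change was 0.0025 without it and −0.26, a call, without replicate 1. Prosbeta1, the caspase-like subunit, stood at 182 and 175 in the control libraries and 214 and 170 in the knockdown libraries (0.09 ± 0.13 SE, limma adjusted p = 0.678). It had the highest estimate of the ring, and its sign rested on 1 library: it was called higher without piwi-embKD replicate 2 (log2 change 0.26, limma adjusted p = 0.0469) and was −0.07 without replicate 1.

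Among the beta subunits that do not cut, Prosbeta6 had the lowest estimate, with 237 and 241 in the control libraries and 243 and 183 in the knockdown libraries (log2 change −0.18 ± 0.14 SE, limma adjusted p = 0.470). Here the knockdown pair spanned the control pair, and the estimate was 0.02 without piwi-embKD replicate 2 and −0.38, a call, without replicate 1. Prosbeta3 stood at 232 and 229.6 against 227 and 188, without overlap (−0.16), and was also called without replicate 1, at −0.30. The other 2 genes of the ring, Prosbeta4 and Prosbeta7, had knockdown means within 1% of their control means. Their knockdown libraries lay on either side of the control pair. Prosbeta4 stood at 211 and 209 against 237 and 184, and Prosbeta7 at 187 and 178 against 197 and 169.

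The 6 Rpt genes encode the ATPase motor. Their sum was 1190 and 1179 in the control libraries and 1187 and 1122 in the knockdown libraries, 100.2% and 94.7% of the control mean. Estimates ran from −0.12 for Rpt3 to 0.06 for Rpt2. Rpt3 stood at 168 and 171 against 162 and 150 (limma adjusted p = 0.441), and Rpt2 at 181 and 184 against 198 and 182 (limma adjusted p = 0.719). The groups of Rpt3 did not overlap, nor did those of Rpt5 and Rpt6, while Rpt2 had a knockdown library inside the control pair. The estimates of Rpt1, Rpt4, Rpt5 and Rpt6 were 0.05, −0.04, −0.12 and −0.08. No Rpt gene was called in any alternative fit.

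Base subunits outside the ATPase ring had estimates on both sides of 0. Rpn2, the scaffold that holds the ubiquitin receptor Rpn13, had the highest estimate of any member: 214 and 214 in the control libraries and 248 and 274 in the knockdown libraries, means of 214 ± 0.29 and 261 ± 18.0 (SD, n = 2 each), a difference of 21.8% (log2 change 0.28 ± 0.09 SE, limma adjusted p = 0.138). Both knockdown libraries exceeded both control libraries, and the gene was called higher without piwi-embKD replicate 1 (0.35, limma adjusted p = 0.0113) and not without replicate 2 (0.21). Rpn13 itself stood at 205 and 213 against 223 and 223, also without overlap (0.09 ± 0.09 SE, limma adjusted p = 0.538). Rpn1, the scaffold to which shuttle proteins dock, stood at 318 and 293 against 300 and 348, with overlapping groups (0.08, limma adjusted p = 0.668). Rpn10, another ubiquitin receptor, had an estimate of the opposite sign, with 212 and 215 in the control libraries and 199 and 172 in the knockdown libraries (−0.20 ± 0.10 SE, limma adjusted p = 0.275). It was called lower without piwi-embKD replicate 1 (−0.31, limma adjusted p = 0.0166).

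The 8 lid genes summed to 2031 and 2010 in the control libraries and 2028 and 1831 in the knockdown libraries. Rpn11, the metalloprotease that cuts off the ubiquitin chain, stood at 267 and 243 against 258 and 217, and Rpn8, its partner, at 170 and 165 against 154 and 174. Both pairs of groups overlapped. The PCI scaffold genes Rpn3, Rpn5, Rpn6 and Rpn9 had estimates of −0.09, 0.0085, −0.05 and −0.10, with overlapping groups in all 4. The lowest estimate was that of Rpn12, a structural lid subunit, at 214 and 231 against 207 and 175 (log2 change −0.22 ± 0.11 SE, limma adjusted p = 0.271), which was called without piwi-embKD replicate 1 (−0.35, limma adjusted p = 0.0192). The highest was that of Rpn7, at 240 and 252 against 266 and 230 (0.0097 ± 0.11 SE, limma adjusted p = 0.963). Its sign turned with equal library totals (−0.04), without white-embKD replicate 1 (−0.03) and without piwi-embKD replicate 1 (−0.09).

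**Figure D2:**
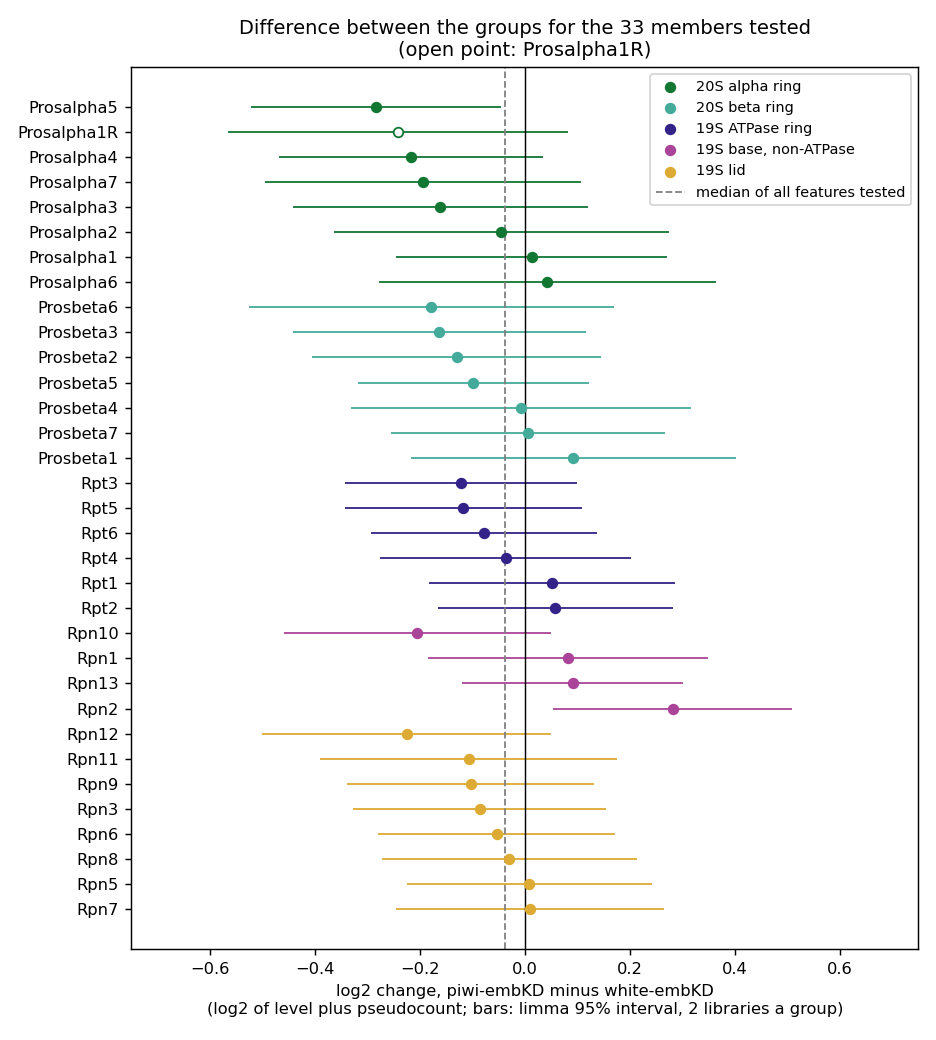
Estimated log2 change (piwi-embKD minus white-embKD, horizontal axis, on log2 of level plus pseudocount) for the 33 members tested; bars are limma's 95% intervals from 2 libraries a group, and the dashed line is the median of all features tested, −0.04. Intervals of 31 members span 0, and those of Prosalpha5 and Rpn2 do not, before adjustment for the number of features.

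The knockdown pair was spread unevenly over the subcomplexes. Piwi-embKD replicate 2 was the lowest of the 4 libraries for 14 of 14 genes of the 20S core, 4 of 6 Rpt genes, 7 of 8 lid genes and 1 of 4 base genes, 26 of 32 broad members in all (81.2%). Over all features tested the share was 40.6%. It was the highest library for 5 of the 32, 3 of them the base genes Rpn1, Rpn2 and Rpn13, where the share of all features was 26.6%. Replicate 1 was the lowest library for 1 of the 32 and the highest for 10, where the shares of all features were 21% and 25.5%. Relative to the control mean, replicate 2 had medians of −0.24 on the log2 scale for the 20S genes and −0.11 for the 19S genes, and replicate 1 had 0.01 and 0.0073. The median over all features was −0.06 in replicate 2 and −0.0094 in replicate 1.

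Calls depended on which knockdown library was kept. Without piwi-embKD replicate 1, 11 of 33 members were called, 10 lower and 1 higher, where 34.5% of all features were called, 18.3% lower and 16.2% higher. Without replicate 2, 1 member was called, higher, where 18.2% of all features were called, 10.1% higher and 8.11% lower. Without white-embKD replicate 1 or 2, limma called 0 members and 2.95% or 2.59% of all features, and 0 members had an unadjusted p under 0.05. In each of these fits the lone library of a group was assumed to vary like the other pair. With no filter 0.706% of features were called and with the replicate block 10.1%, and 0 members in both. The median log2 change of the broad members was −0.16 without replicate 1 and 0.0073 without replicate 2.

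Transcript length moved with the deviation of replicate 2. The genes of the core are short, with a median transcript of 971 nt in the Release 6 gene models against 1534 nt for the 19S genes. Across the 32 broad members the log2 deviation of piwi-embKD replicate 2 from the control mean had a Spearman rho of 0.57 with length, and 0.47 without Rpn1 and Rpn2, the longest at 3041 and 3325 nt. In replicate 1 rho was −0.01. Across 7778 genes tested rho was 0.33 in replicate 2 and −0.10 in replicate 1. Over the 6020 of them under 3500 nt, the range that holds all broad members, rho was 0.16 in replicate 2 and −0.16 in replicate 1. These values describe genes that share the same libraries, and genes are not independent replicates.

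Set beside other genes of like length, the short members lay lower in replicate 2. The 10 broad members under 1000 nt had a median of −0.30, and the 1145 genes tested in that range had −0.15. From 1000 to 1500 nt the medians were −0.12 for 12 members and −0.17 for 1338 genes, and from 1500 to 2000 nt they were −0.15 for 8 members and −0.12 for 1311 genes. Rpn1 and Rpn2 stood at 0.19 and 0.35, and the 2226 genes between 2000 and 3500 nt had a median of −0.06. In replicate 1 the medians under 1000 nt were −0.0011 for the members and 0.08 for the genes. They were 0.0098 and −0.0003 from 1000 to 1500 nt, and 0.0073 and −0.01 from 1500 to 2000 nt. Replicate 2 also had the largest summed level of 10 follicle cell markers (3790 and 3683 in the control libraries, 8434 and 10892 in the knockdown libraries, none at 0) and the smallest of 10 gut markers (177 and 157 against 41.7 and 0.739, with epsilonTry, deltaTry, Jon25Bi and Jon65Aiii at 0 in replicate 2). Unlike the gut sum, deltaTry was highest in piwi-embKD replicate 1, at 0.055 and 1.21 against 2.33 and 0. Of 9 muscle sheath markers, 8 were higher in both knockdown libraries than in both control libraries and summed to 122 and 114 against 217 and 182, with none at 0. The other one, Tm1, stood at 562 and 595 against 552 and 512. The part of length and of these cell types in the proteasome values was not tested.

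**Figure D3:**
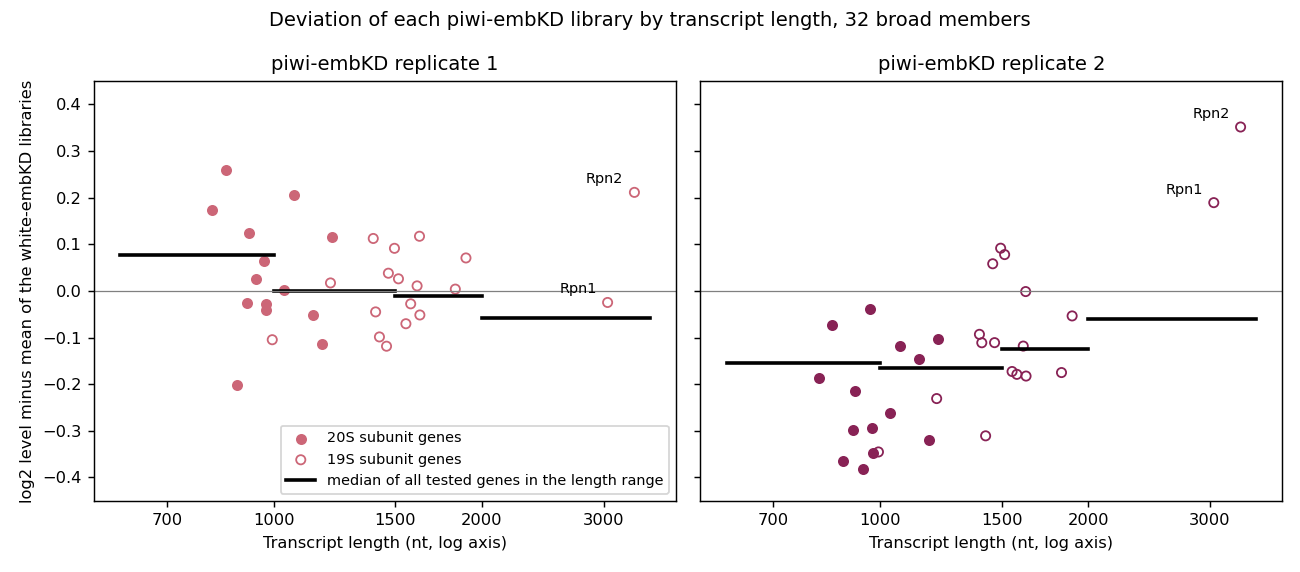
Log2 level of the 32 broad members in piwi-embKD replicate 1 (left) and replicate 2 (right) minus the mean of the white-embKD libraries, against transcript length in nt on a log axis; filled points are 20S genes, open points 19S genes, and black lines the median of all tested genes in each length range. In replicate 2 the short genes lie mostly below 0, and Rpn1 and Rpn2 lie above it.

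Levels of different subunits were compared per kilobase of transcript. On this scale Prosbeta5 was highest, at 396, 394, 381 and 357 per kb in white-embKD replicates 1 and 2 and piwi-embKD replicates 1 and 2. Its lowest library lay above the highest library of every other member. Prosalpha2 followed with a mean of 304 per kb, then Prosbeta4 (258) and Prosalpha3 (254). At the low end stood Rpn1 (103), Rpn2 (71.5) and Prosalpha1 (46.4), whose libraries did not overlap with those of their neighbours in the order at Rpn1 and Rpn2 and at Rpn2 and Prosalpha1. In 28 of 31 neighbouring pairs the ranges over the 4 libraries overlapped, so the order inside the list was not resolved there.

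Per kilobase, core genes stood above genes of the regulatory particle. Core genes are also shorter (medians of 971 and 1534 nt), which enters this scale. Other genes of like length were not compared. Before division by length, the 14 core genes summed to 3304 and 3283 in the control libraries and the 18 19S genes to 4170 and 4124. The median was 234 per kb over the alpha genes, 240 over the beta genes, 169 over the lid, 122 over the ATPases and 122 over the base. The median of the 20S genes was 1.71 and 1.74 times that of the 19S genes in the control libraries and 1.74 and 1.55 times in the knockdown libraries. Piwi-embKD replicate 2 thus had the smallest ratio of the 4 libraries. Prosbeta7 was the only core gene apart from Prosalpha1 with a mean below that of Rpn7, Rpn5 and Rpt1.

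**Figure D4:**
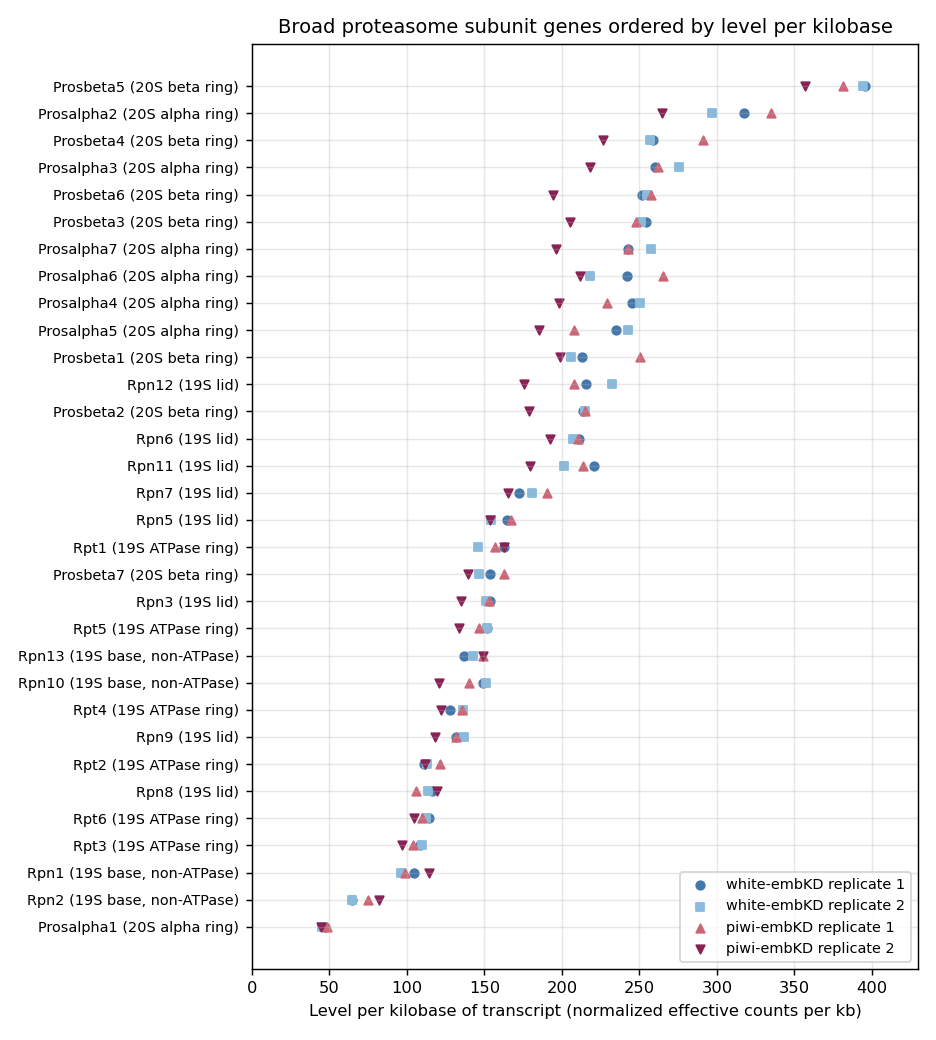
Level per kilobase of transcript (horizontal axis, normalized effective counts per kb) of the 32 broad members in the 4 libraries, ordered by the mean. Prosbeta5 stands alone at the top, between 357 and 396 per kb, and Prosalpha1 at the bottom, between 44.9 and 48.3.

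The low value of Prosalpha1 has a counterpart in Prosalpha1R, the only member with a testis-type symbol that passed the filter. Prosalpha1R stood at 135 and 143 in the control libraries and 133 and 104 in the knockdown libraries (log2 change −0.24 ± 0.13 SE, limma adjusted p = 0.306), and Prosalpha1 at 45.7 and 43.7 against 46.8 and 43.5 (0.01 ± 0.11 SE, limma adjusted p = 0.952). Both genes lie on chromosome arm 2R with 0 annotated genes between them, and their coding sequences have the same length, 732 nt. One transcript of each (NM_165565 and NM_001169607) had the same value in every library, 5.31 and 5.95 in the control libraries and 7.31 and 3.94 in the knockdown libraries, as when a model divides shared fragments evenly. The split between the pair is therefore uncertain. Their sum was 181 and 187 in the control libraries and 179.5 and 148 in the knockdown libraries. Per kb it was 182 on average, which 15 broad members exceeded. Prosalpha1R held 74.7% and 76.6% of the pair in the control libraries and 73.9% and 70.5% in the knockdown libraries. It was called lower without piwi-embKD replicate 1 (−0.42, limma adjusted p = 0.0110).

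The other 15 testis-type copies were at or near 0 in every library. Together they held 21.1 and 16.2 effective counts in the control libraries and 28.4 and 34.1 in the knockdown libraries. Of the 15, 5 were listed at 0 in all libraries (Prosalpha3T, Prosalpha4T1, Prosalpha4T2, Prosbeta4R2 and Prosbeta5R1). A listing of 0 allows up to 3 counts, a level of 0.148 and 0.151 in the control libraries and 0.188 and 0.183 in the knockdown libraries. A further 7 were above 0 in 1 library and Prosbeta2R2 in 2, at no more than 2.50 effective counts, the value of Rpt6R in piwi-embKD replicate 2. These floors cover counting error only.

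Rpt3R and Rpn13R were the 2 copies above 0 in all libraries. Rpt3R exceeded 3 counts in all 4 and Rpn13R in 3. Rpt3R, a relative of the ATPase gene Rpt3, held 15.4 and 9.39 effective counts in the control libraries and 16.7 and 24.1 in the knockdown libraries, at levels of 0.761 and 0.473 against 1.05 and 1.47. Both knockdown values lay above both control values, and the mean over the 4 libraries was under the filter, so the gene was not tested. Its level was 0.364% of that of Rpt3 in the control libraries and 0.809% in the knockdown libraries. Rpt3R overlaps Alg12 on the opposite strand in the Release 6 annotation, and reads of the 2 genes cannot be told apart without a strand setting, which is not given in the sources used here. Rpn13R held 5.69 and 5.51 effective counts in the control libraries and 7.50 and 1.87 in the knockdown libraries, with overlapping groups.

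**Figure D5:**
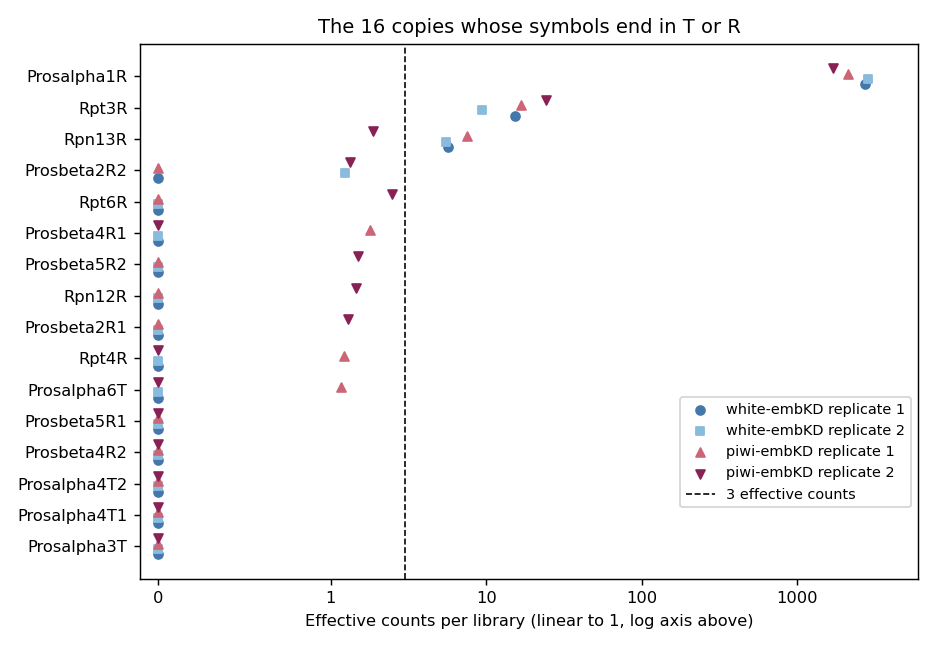
Effective counts per library (horizontal axis, linear up to 1 and logarithmic above) of the 16 members whose symbols end in T or R; the dashed line marks 3 counts. Prosalpha1R lies between 1705 and 2846 counts, Rpt3R between 9.39 and 24.1, and 13 of the members lie below the line in every library.

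Overlap with other genes limits some broad members as well, and Prosalpha1R, whose exons overlap those of CG18853 on the opposite strand. In the Release 6 annotation, exons of 13 of the 32 overlap exons of a gene on the opposite strand, among them Prosalpha1 (phr), Prosalpha2 (Aos1), Prosbeta1 (CG8389), Prosbeta2 (Reck), Prosbeta3 (CG11980), Prosbeta5 (Lsm10), Rpn7 (CG34376), Rpt2 (CG31142), Rpt4 (wuho), Rpt5 (Hrd3) and Rpt6 (CG1801). The values of these genes and of Prosalpha1R may include reads of the partner. Neither Prosalpha5 nor Rpn2, which had the lowest and the highest estimate, has such a partner.

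Genes that feed and regulate the proteasome were measured beside it. Of 54 listed, 51 passed the filter and 0 were called higher or lower (6.69% of all features were called), and 6 had an unadjusted p under 0.05, where 25% of all features did. The median log2 change of the 51 was −0.09. Without piwi-embKD replicate 1, 12 of the 51 were called, 2 higher and 10 lower, beside 34.5% of all features. Without replicate 2, 1 was called, lower, beside 18.2% of all features. Ubc87F, Roc1b and CSN1a were listed at 0 in all libraries.

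Assembly and control genes gave small estimates. Pomp, the chaperone that matures the core, stood at 173 and 169 in the control libraries and 162 and 145 in the knockdown libraries (log2 change −0.16 ± 0.10 SE, limma adjusted p = 0.351; −0.23, a call, without piwi-embKD replicate 1). Sem1, a small lid subunit whose symbol lies outside the naming rule, stood at 133 and 121 against 136 and 121 (0.01), and its estimate was −0.03 with equal library totals. The transcription factor gene cnc, whose long isoform is known to switch on proteasome genes in the fly, stood at 324 and 335 against 298 and 342 (−0.05 ± 0.10 SE, limma adjusted p = 0.799), with the knockdown pair on both sides of the control pair. These values are sums over the transcripts of cnc, and its long isoform was not looked at apart. Pngl, a glycanase gene, stood at 117 and 122 against 103 and 93.0 without overlap (−0.29 ± 0.10 SE, limma adjusted p = 0.145), and at −0.36, a call, without piwi-embKD replicate 1.

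Shuttle and segregase genes gave estimates on both sides of 0. Rad23, which carries tagged proteins to the proteasome, stood at 604 and 574 in the control libraries and 561 and 436 in the knockdown libraries (log2 change −0.25 ± 0.14 SE, limma adjusted p = 0.300), and at −0.43, a call, without piwi-embKD replicate 1. Ubqn, another shuttle, stood at 297 and 306 against 288 and 324 (0.02), an estimate that was −0.03 with equal library totals. TER94, the fly p97 ATPase that extracts tagged proteins, stood at 608 and 597 against 683 and 684 (0.18 ± 0.09 SE, limma adjusted p = 0.259). Both knockdown libraries lay above both control libraries. Npl4, a cofactor of TER94, stood at 234 and 229 against 215 and 210.4 (−0.12).

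Among ubiquitin genes and enzymes the estimates were larger at the ends. Ubi-p5E, a polyubiquitin gene, stood at 1185 and 1185 in the control libraries and 993 and 921 in the knockdown libraries (log2 change −0.31 ± 0.10 SE, limma adjusted p = 0.125; −0.36, a call, without piwi-embKD replicate 1). RpL40, which encodes ubiquitin fused to a ribosomal protein, stood at 816 and 694 against 924 and 824 (0.21). Uba1, the ubiquitin-activating enzyme, stood at 431 and 397 against 464 and 561 (0.30 ± 0.12 SE, limma adjusted p = 0.190), called without piwi-embKD replicate 1 at 0.44. Ubc10, a conjugating enzyme, stood at 115 and 121 against 116 and 94.2 (−0.17), and was called without piwi-embKD replicate 1 at −0.32.

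In the cullin ligases the lowest estimate was that of Roc2, a RING subunit, with 36.0 and 41.3 in the control libraries and 31.0 and 27.2 in the knockdown libraries (log2 change −0.40 ± 0.13 SE, limma adjusted p = 0.133; −0.49, a call, without piwi-embKD replicate 1). The highest was that of the F-box gene ago, at 277 and 294 against 272 and 353 (0.12), which was −0.07 without piwi-embKD replicate 2 and 0.31, a call, without replicate 1. The smallest adjusted p of the 51 genes, 0.0902 in limma, belonged to slmb, an F-box gene at 376 and 410.0 against 311 and 309, named here after its values were seen. It was called without either knockdown library (−0.34 in both fits). The COP9 signalosome, a relative of the proteasome lid that acts on cullins, had 8 genes tested, with estimates from −0.16 (CSN4) to 0.01 (CSN1b, −0.03 with equal library totals) and overlapping groups in all 8.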

How the data were processed

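Ovary total RNA, 4 µg per library and depleted of ribosomal RNA, was read as 150 nt pairs, per the labels' protocols. The authors deposited a signal per target, which per the file headers and names is an eXpress effective count times a normalization factor. No source used here gives the origin of the factor, the annotation, the filters or the strand setting. Bowtie2, STAR, Cufflinks and dm3 stand in the submitters' processing notes without a role.

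Of 29637 targets, 126 are transposons. RefSeq accessions named 28233 transcripts (95.7% of the rest) from the Release 6 gene table, and values were summed per gene. Release 6 models gave lengths, overlaps and neighbours only. Depth assumes that the smallest nonzero value of a library is 1e-06 of a count. Limma 3.58.1 (R 4.3.3, trend) was fitted to log2(value + 0.995) over the 8172 features with a mean of at least 0.995, two-sided, with Benjamini-Hochberg adjustment over all of them and calls under 0.05. The pseudocount is the mean column total over 1e+06, and fold changes of low genes are understated. The fit was tested on simulated data.

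Members, lists and tests were chosen with earlier results of these data known. Values per library are given for called members, the highest and lowest estimate per subcomplex and per pathway group, the cutting beta subunits, Prosalpha1R, the 3 highest untested testis-type copies (Rpt3R, Rpn13R and Rpt6R) and the hairpin targets. Prosalpha3, Prosalpha4, Prosalpha7, Prosbeta3, Prosbeta4, Prosbeta7, Rpn1, Rpn8, Rpn11, Rpn13, Prosalpha1 and slmb were added for their roles, spread or calls. Alternatives were other pseudocounts, filters, scalings, no trend, a replicate block, unsummed transcripts and each library left out.

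Of the other marker lists, 7 germline genes summed to 3899 and 3658 in the control libraries and 3063 and 3379 in the knockdown libraries. Most of this was osk, at 2914 and 2670 against 2137 and 2341. The other 6 germline genes summed to 985 and 988 against 925 and 1038. Of these, 2 were lower and 1 higher in both knockdown libraries than in both control libraries. The 6 fat body genes summed to between 133 and 168 per library, nearly all of it apolpp. Protein and promoter sequences were not used here.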

Additional observations from a re-analysis of the deposited data

How the results depend on the processing

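The finding that 0 members, 0 broad members and 0 pathway genes were called held with both other pseudocounts, no filter, the stricter filter, both other scalings, no trend, the replicate block, unsummed transcripts and with Prosalpha1 and Prosalpha1R summed, an alternative chosen after seeing the data. At an unadjusted p under 0.05, limma placed 1 to 4 members and 4 to 6 pathway genes in those fits on summed genes. Leaving out 1 library gave 0 to 11 members, 0 to 10 broad members, 0 to 1 testis-type members, 0 to 12 pathway genes and 213 to 2793 features. The count of 547 features was 86 with no filter, 827 with the replicate block and 91 with transcripts unsummed. Samples of the same number shared little: their deviations correlated at 0.06 over features, and the block changed no member's call, while it called piwi (limma adjusted p = 0.0009). The summed testis-type level in piwi-embKD was 0.858 of the white level and 2.08 of it without Prosalpha1R, from few counts. With equal library totals the estimates of Prosalpha6 (−0.0021), Rpn7 (−0.035), Sem1 (−0.031), Ubqn (−0.025) and CSN1b (−0.031) turned negative. Leaving out 1 library moved the log2 change of Prosalpha6 from −0.12 to 0.21, Prosbeta1 from −0.073 to 0.26, Prosbeta6 from −0.38 to 0.025, Prosbeta2 from −0.26 to 0.0025, Rpt2 from −0.0014 to 0.12, Rpn7 from −0.093 to 0.11, Sem1 from −0.071 to 0.099, Ubqn from −0.064 to 0.10, cnc from −0.14 to 0.052, ago from −0.071 to 0.31 and CSN1b from −0.041 to 0.070. The cause was not tested. With 2 libraries a group, differences within the reach of the intervals given could not be told from none. Larger ones could go uncalled after adjustment. The intervals of Rpn2 (log2 change 0.28), slmb (−0.34) and Roc2 (−0.40) did not span 0, and none of these genes was called in the main fit.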

Other observations

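The transcripts of a gene were shared out unevenly by the deposited model, and in some cases differently between libraries. Prosbeta4 has 2 transcripts, and NM_135960 held 0.0135% and 70.9% of the gene in the controls against 63.4% and 70.5% in the knockdowns, while the gene as a whole stood at 211 and 209 against 237 and 184. White-embKD replicate 1 thus differed from its own replicate in the transcript and not in the sum. For Rpn8, NM_001274238 and NM_079121 had the same value in every library, and so had NM_001276128 and NM_143420 of Rpn2. In Rpn13, whose product binds ubiquitin, NM_166025 led with 62.3% and 63.6% against 61.9% and 69.4%. In Rpn6, a lid scaffold gene, NM_058126 led with 72.1% and 82.2% against 73.3% and 71.8%.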
